A study of Homo sapiens with 12 samples.

Results

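Glycolysis and the pentose phosphate pathway were followed through 34 genes in MM1S cells, an established multiple myeloma line, before and during treatment with NGI-1, a small-molecule inhibitor of the oligosaccharyltransferase (OST) complex that attaches N-glycans to proteins in the endoplasmic reticulum. The genes were chosen by symbol and pathway step from the 59276 features of the deposited table, with earlier results of these data known. Total RNA was sequenced in 12 libraries, with 4 groups of 3. Libraries H1 to H3 are untreated cells of day 0, and H4 to H6, H7 to H9 and H10 to H12 are cells kept in 10 μM NGI-1 for 2, 3 and 5 days. The labels name NGI-1 as the treatment of the day 0 libraries as well. These libraries were taken as untreated because the study sets its NGI-1 samples against untreated cells and day 0 is the one time point without days of treatment. The labels do not settle whether vehicle was added. No untreated cells of a later day are among the libraries, so effects of NGI-1 and of time in culture cannot be told apart. All 4 groups come from the same line, and nothing in the sources says whether the libraries of a group came from separate cultures, so p-values measure the spread between these libraries, which may be technical.

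Glycolysis splits glucose into pyruvate in a preparatory stage that consumes ATP and a pay-off stage that returns ATP and NADH. Lactate dehydrogenase turns pyruvate into lactate and regenerates NAD+, monocarboxylate transporters export the lactate, and pyruvate dehydrogenase kinases hold pyruvate back from the mitochondria. The pentose phosphate pathway branches off at glucose 6-phosphate and gives NADPH and ribose 5-phosphate, which proliferating cells use for lipid and nucleotide synthesis. Many of these enzymes exist as isoenzymes encoded by separate genes, and several are textbook targets of the hypoxia-inducible factors and of MYC.

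Values are TPM, transcript abundances corrected for length and scaled to a fixed total, deposited as log2(TPM + 1). The added 1 TPM makes the log2 changes of genes near 1 TPM smaller than their fold changes. All libraries summed to 1000000 TPM after rounding, so a gene's value is its share of the RNA counted, and it can move because other genes move. Ribosomal protein genes held 28.5 to 29.6% of the TPM in untreated libraries and 47.8 to 49.4% on day 5, and mitochondrially encoded genes went from 9.33 to 10.7% to 13.4 to 14.7%. Across the 11939 features tested, which reached 1 TPM in at least 3 libraries, the median log2 change against untreated was -0.18 on day 2, -0.73 on day 3 and -0.99 on day 5. Many changes are therefore also given after rescaling, in which every library was divided by 1 factor that brings the median feature to the same level in all libraries. All 8 myeloma markers examined were at 10 TPM or more in every library. By day 5, 5 of these 8 markers fell and 1 rose, against 69.8% and 7.73% of all features. After rescaling, 2 fell and 3 rose, against 26.9% and 27.5% of all features. On the deposited scale the largest fall was in XBP1, the plasma cell secretory factor (-2.09, and -0.87 after rescaling). The largest rise was in TNFRSF17, the receptor BCMA (1.85, and 3.08 after rescaling). Of 11 markers of other cell types, 4 (CD3D, COL1A2, ALAS2 and EPCAM) were listed at 0 throughout and 9 stayed under 1 TPM in every library. Their summed level was 3.21 to 3.82 TPM in untreated libraries, 5.08 to 7.28 TPM on day 2, 5.41 to 8.0 TPM on day 3 and 4.15 to 5.78 TPM on day 5, and CD3E, which alone passed the filter, made up most of it (3.0 ± 0.294, 6.33 ± 1.11, 5.79 ± 1.25 and 4.01 ± 0.68 TPM in the 4 groups, SD, n = 3). HBB, which did not pass the filter, was listed at 0 in the untreated and day 2 libraries and at 0.10 to 1.14 TPM on days 3 and 5. CD3E was called higher on day 2 (0.86, limma adjusted p = 0.000831) and day 3 (0.75, limma adjusted p = 0.000796), and on day 5 only after rescaling (1.27). Whether CD3E or HBB moved with any gene described here was not tested. In bulk RNA, fewer transcripts per cell and fewer cells of a kind cannot be told apart.

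The promoters of 4 genes are shown first, because LDHB and PGLS separate from the other genes in the values that follow, and LDHA and ENO1 stand for the abundant transcripts that fell. The sequences are from RefSeq on GRCh38.p14 and cover the 250 bases before an annotated transcript start, read 5′ to 3′ on the strand of the gene. They lie at chr11:18394313-18394562 (plus strand) for LDHA, chr12:21657843-21658092 (minus strand) for LDHB, chr1:8878687-8878936 (minus strand) for ENO1 and chr19:17511399-17511648 (plus strand) for PGLS. Capitals mark the core of the hypoxia response element, ACGTG or GCGTG on either strand, including those inside an E-box.
LDHA: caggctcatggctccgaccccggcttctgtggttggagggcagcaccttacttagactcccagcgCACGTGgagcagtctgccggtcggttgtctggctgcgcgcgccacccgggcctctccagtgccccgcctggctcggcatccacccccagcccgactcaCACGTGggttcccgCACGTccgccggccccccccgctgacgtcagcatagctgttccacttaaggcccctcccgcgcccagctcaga
LDHB: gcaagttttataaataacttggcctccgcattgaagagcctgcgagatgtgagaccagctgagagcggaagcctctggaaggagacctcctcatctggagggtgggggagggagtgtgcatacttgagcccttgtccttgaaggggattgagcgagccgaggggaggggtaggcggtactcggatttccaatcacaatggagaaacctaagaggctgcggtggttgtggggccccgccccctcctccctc
ENO1: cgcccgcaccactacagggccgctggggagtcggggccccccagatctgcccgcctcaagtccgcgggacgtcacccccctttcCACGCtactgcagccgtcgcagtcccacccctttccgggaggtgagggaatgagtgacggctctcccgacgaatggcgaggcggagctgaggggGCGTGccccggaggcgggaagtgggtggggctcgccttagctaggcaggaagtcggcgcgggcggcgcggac
PGLS: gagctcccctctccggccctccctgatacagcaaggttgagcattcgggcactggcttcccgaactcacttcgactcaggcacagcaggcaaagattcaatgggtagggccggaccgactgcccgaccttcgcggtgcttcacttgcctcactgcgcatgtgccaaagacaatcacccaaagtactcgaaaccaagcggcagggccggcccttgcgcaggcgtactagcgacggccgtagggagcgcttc
The shown window of LDHA held 5 matches to the core and that of ENO1 held 2, while the windows of LDHB and PGLS held 0. A CACGTG counts once on each strand, so the 5 matches of LDHA lie in fewer marked stretches. A second LDHA start, with its window at chr11:18396101-18396350, held 1. The bases after the start, not shown, added 1 match each for the first LDHA window and LDHB. RefSeq promoter entries, which add the 50 bases after the start, were found for 31 of the 34 genes and amounted to 60 windows. PFKFB2, SLC16A1 and SLC2A3 had no entry. The core was present in 36 of these 60 windows (60%), against 62.3% of the 12972 windows of features that passed the filter. The split between the 4 shown promoters did not hold for all genes. Among genes that fell, the windows of PGAM1, TKT and TALDO1 held 0 matches and that of PGK1 held 4. SLC16A3, not called lower on any day, had windows with 0, 1, 2 or 3 matches. An E-box, CACGTG, whose letters contain ACGTG on both strands, was present in 7 windows (11.7% against 9.89%), and a GC box, GGGCGG, in 42 (70% against 67.3%). Thus, counted by window, the 3 motifs were about as frequent here as in all features that passed the filter, a set that includes genes described here. Some genes have several windows, so the windows are not independent, and no comparison by gene was made. A match is only a description of the letters.

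Most of the glycolytic genes were lower at every time point, and the difference from untreated cells was larger on day 5 than on day 2. Of the 34 genes, 32 passed the filter. On day 2, 20 of the 32 were called lower and 1 higher (23.2% and 8.03% of all features), where a call needed a log2 change over 0.5 in size and a limma p under 0.05 after Benjamini-Hochberg adjustment over all features tested. On day 3, 29 were called lower and 0 higher (61.5% and 7.59% of all features). The same counts, 29 and 0, were found on day 5 (69.8% and 7.73%). The median log2 change of the 32 genes was -0.58, -1.37 and -1.85 on days 2, 3 and 5. On these days 27, 28 and 28 genes lay below the median of all features. After rescaling, 11 genes were called lower and 2 higher on day 2 (11.4% and 12.9% of all features), 19 and 3 on day 3 (24.2% and 23.9%), and 20 and 3 on day 5 (26.9% and 27.5%). When ribosomal protein and mitochondrially encoded genes were left out and the others brought to the same total, the counts were 14 and 2 on day 2 (16% and 12.5%), 25 and 2 on day 3 (43.4% and 15.1%), and 28 and 1 on day 5 (48.1% and 16.9%). On the deposited scale, all 3 treated libraries lay below all 3 untreated ones for 27, 30 and 30 genes on days 2, 3 and 5, as they did for 44.1%, 70.5% and 75.2% of all features. They lay above for 1, 0 and 1 genes (16.9%, 11.1% and 10% of all features). The 3 time points share the same untreated libraries, so their counts are not independent of each other.

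**Figure D1:**
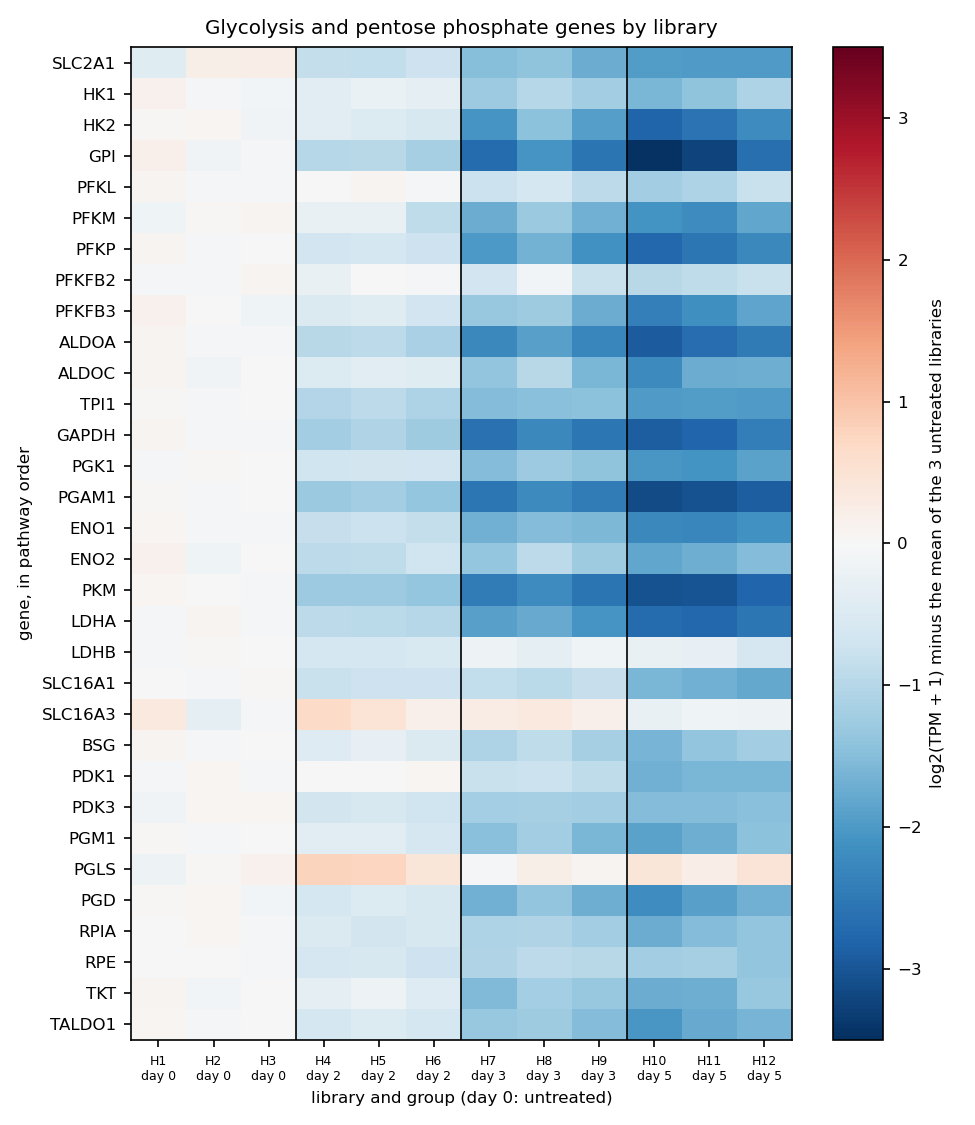
Each row is 1 of the 32 tested genes in pathway order and each column 1 library, and the color gives log2(TPM + 1) minus the mean of the 3 untreated libraries. Blue deepens from day 2 to day 5 in nearly every row, and the rows of LDHB, SLC16A3 and PGLS remain pale or red.

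Glucose enters the cell through SLC2A1 (GLUT1), which was measured at 16.5, 25.8 and 26.5 TPM in untreated libraries. It was at 12.1, 12 and 13.1 TPM on day 2, 7.36, 7.88 and 6.02 TPM on day 3, and 5.09, 4.97 and 4.91 TPM on day 5. None of the treated libraries reached the lowest untreated value. SLC2A1 fell on day 5 by 1.97 on the log2 scale (SE 0.16, limma adjusted p = 5.08e-08) and by 0.86 after rescaling. SLC2A3 (GLUT3), the high-affinity transporter, was at 0.03, 0.17 and 0.02 TPM in untreated libraries, was listed at 0 on days 3 and 5, and did not pass the filter. The hexokinases trap glucose in the cell as glucose 6-phosphate. HK2 was at 31.9, 32.4 and 28.3 TPM in untreated libraries, 23.8, 21.8 and 20.5 TPM on day 2, 6.56, 10.7 and 7.38 TPM on day 3, and 3.59, 4.30 and 5.93 TPM on day 5. Its groups did not overlap with the untreated group at any time. The day 2 change of -0.47 (SE 0.17, limma adjusted p = 0.0388) was under the size threshold, whereas HK2 fell on day 3 (-1.82, SE 0.17) and on day 5 (-2.53, SE 0.17, and -1.42 after rescaling). HK1, the other hexokinase measured, was at 5.93 ± 0.682 TPM untreated and 1.71 ± 0.488 TPM on day 5 (SD, n = 3), a change of -1.37 that was -0.46 and not called after rescaling.

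GPI, which converts glucose 6-phosphate to fructose 6-phosphate, showed the largest change of the 32 genes on day 5. It was measured at 354, 286 and 305 TPM in untreated libraries, 157, 161 and 141 TPM on day 2, 47.2, 74.1 and 52 TPM on day 3, and 27.9, 32.0 and 49.9 TPM on day 5. Each treated group lay below the untreated group, and library H8 on day 3 and H12 on day 5 were the highest of their groups. GPI retained 48.6%, 18.3% and 11.6% of its untreated mean on days 2, 3 and 5. Its log2 change on day 5 was -3.11 (SE 0.19, limma adjusted p = 3.89e-09) and -1.90 after rescaling. On the deposited scale only 1.96% of all tested features had a lower change.

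Phosphofructokinase 1 commits fructose 6-phosphate to glycolysis and is built from the products of PFKL, PFKM and PFKP. The 3 genes behaved differently. PFKP was at 132, 118 and 124 TPM in untreated libraries, 77.9, 80.2 and 75.0 TPM on day 2, 30.4, 38.9 and 27.9 TPM on day 3, and 17.6, 20.5 and 25.4 TPM on day 5. It fell at each time, with log2 changes of -0.67, -1.92 and -2.51 on days 2, 3 and 5 (SE 0.13 each, limma adjusted p = 0.00121, 2.62e-08 and 9.21e-10). After rescaling, the changes of PFKP were -0.44, -1.07 and -1.32, and the first was not called. PFKM went from 87.6 ± 7.52 TPM untreated to 20.7 ± 3.18 TPM on day 5 (SD, n = 3), a change of -2.04 (-0.84 after rescaling). On day 2, library H6 (46.5 TPM) was below H4 and H5 (73.3 and 72.9 TPM), and the PFKM change of -0.47 was under the size threshold but called without H1, H4 or H5 (-0.54, -0.58 and -0.57). By contrast, PFKL was at 27.0, 24.2 and 24.6 TPM in untreated libraries and at 25.6, 27.0 and 24.6 TPM on day 2, so that these groups overlapped. It was then at 14.5, 16.3 and 12.8 TPM on day 3 and at 10.4, 11.3 and 14.4 TPM on day 5. The changes of PFKL, -0.76 on day 3 and -1.02 on day 5 (limma adjusted p = 7.03e-05 and 3.28e-06), turned to 0.06 and 0.14 after rescaling and were then not called.

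The bifunctional PFKFB enzymes set the level of fructose 2,6-bisphosphate, the activator of phosphofructokinase 1. PFKFB3, the isoform with the strongest kinase activity, was at 9.66, 8.61 and 7.69 TPM in untreated libraries, 5.76, 6.22 and 5.04 TPM on day 2, 2.82, 3.04 and 1.86 TPM on day 3, and 0.83, 1.18 and 1.7 TPM on day 5. These 4 groups did not overlap. PFKFB3 fell by 2.12 on day 5 (SE 0.17, limma adjusted p = 5.01e-08) and by 1.24 after rescaling. Its day 2 change of -0.53 was lost as a call without H1 (-0.46), H2 (-0.53, limma adjusted p = 0.0536) or H6 (-0.46). PFKFB2 was low throughout, at 1.49 ± 0.149 TPM untreated and 0.35 ± 0.0933 TPM on day 5 (SD, n = 3). Its day 3 change of -0.51 was not called without H3 (-0.46), H7 (-0.44) or H9 (-0.38), and library H8 (1.33 TPM) stood above H7 and H9 (0.57 and 0.45 TPM). PFKFB4 ranged from 0.25 to 2.67 TPM over the 12 libraries, the highest value being that of H4, and did not pass the filter.

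Aldolase cleaves fructose bisphosphate, and TPI1 interconverts the resulting triose phosphates. ALDOA was at 916, 821 and 837 TPM in untreated libraries, 433, 456 and 391 TPM on day 2, 177, 228 and 176 TPM on day 3, and 113, 135 and 154 TPM on day 5. The 4 groups were fully separated. ALDOA fell by 2.68 on day 5 (SE 0.12, limma adjusted p = 1.91e-10) and by 1.46 after rescaling. Its value is uncertain, since 42.3% of its exon bases in GENCODE release 29 are shared on the same strand with AC093512.2, a row that went from 95.2 to 9.38 TPM. ALDOC, the aldolase known from brain, was far lower, with 17.3 ± 1.32 TPM untreated and 3.99 ± 0.916 TPM on day 5 (SD, n = 3), and fell by 1.89 (by 0.82 after rescaling). TPI1 had the smallest SE of the 32 genes, with 460, 426 and 444 TPM in untreated libraries and 110, 114 and 111 TPM on day 5. TPI1 fell on all 3 days, with log2 changes of -1.0, -1.48 and -1.98 (SE 0.07 each) and of -0.76, -0.61 and -0.76 after rescaling.

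The pay-off stage includes GAPDH and ENO1, which with LDHA were the most abundant of the 34 transcripts in untreated cells. GAPDH, which oxidizes glyceraldehyde 3-phosphate, was at 2338, 2077 and 2122 TPM in untreated libraries and at 938, 1056 and 920 TPM on day 2. It was at 356, 455 and 376 TPM on day 3 and at 296, 318 and 409 TPM on day 5. The untreated and day 2 libraries were separated from each other and from all later ones, whereas days 3 and 5 overlapped. GAPDH fell on all 3 days, with log2 changes of -1.17, -2.47 and -2.68 (SE 0.12 each, limma adjusted p = 4.35e-06, 6.26e-10 and 1.54e-10). After rescaling, the changes of this gene, which is widely used as a loading control, were -0.93, -1.60 and -1.46. The day 5 against day 3 change was -0.22 (limma adjusted p = 0.173) and turned to 0.14 after rescaling.

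PGK1 makes the first ATP of the stage. It was at 212 ± 4.81 TPM untreated and 52.5 ± 4.27 TPM on day 5 (SD, n = 3) and changed by -2.0 (-0.79 after rescaling, called on both scales). PGAM1, the phosphoglycerate mutase of the next step, was at 516, 490 and 512 TPM in untreated libraries, 205, 218 and 197 TPM on day 2, 87.6, 107 and 92.2 TPM on day 3, and 56.5, 60.6 and 68.3 TPM on day 5. No library of any group reached into the next. PGAM1 had the smallest adjusted p of the set on day 5, with a log2 change of -3.02 (SE 0.09, limma adjusted p = 3.83e-12) that was -1.80 after rescaling. ENO1, the main enolase, was at 1760, 1627 and 1629 TPM in untreated libraries, 947, 994 and 943 TPM on day 2, 516, 583 and 559 TPM on day 3, and 351, 340 and 387 TPM on day 5. The 4 groups did not overlap. ENO1 fell on all 3 days, with log2 changes of -0.80, -1.60 and -2.22 (SE 0.07 each) and of -0.56, -0.73 and -0.99 after rescaling. ENO2, the neuronal enolase, was at 3.94 ± 0.554 TPM untreated and 0.538 ± 0.174 TPM on day 5 (SD, n = 3). It fell by 1.68 (by 0.99 after rescaling). With 0.1 TPM in place of 1 added before the log, the day 5 change was -2.69 for ENO2 and -2.22 for ENO1. PKM, the pyruvate kinase that ends the stage, was at 569, 537 and 525 TPM in untreated libraries, 227, 226 and 212 TPM on day 2, 99.2, 117 and 91.6 TPM on day 3, and 64.3, 66.6 and 78.9 TPM on day 5. PKM retained 40.8%, 18.9% and 12.9% of its untreated mean, and it fell on all 3 days with log2 changes of -1.29, -2.40 and -2.95 (SE 0.10 each, limma adjusted p on day 5 = 1.04e-11), or -1.06, -1.53 and -1.73 after rescaling.

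The lactate dehydrogenase genes separated. LDHA (chr11:18394388-18408425, GRCh38) encodes the muscle-type subunit and was at 1799, 1962 and 1769 TPM in untreated libraries, 971, 953 and 920 TPM on day 2, 491, 539 and 442 TPM on day 3, and 283, 271 and 317 TPM on day 5. Its groups did not overlap. LDHA fell on all 3 days, with log2 changes of -0.96, -1.91 and -2.66 (SE 0.08 each, limma adjusted p = 9.55e-07, 2.08e-10 and 5.01e-12) and of -0.72, -1.04 and -1.44 after rescaling. LDHB (chr12:21635342-21757857) encodes the heart-type subunit and was at 586, 628 and 617 TPM in untreated libraries, 400, 398 and 424 TPM on day 2, 540, 487 and 555 TPM on day 3, and 507, 501 and 407 TPM on day 5. Its treated libraries were all below the untreated ones, but they did not decline with time. Of its exon bases, 33.4% are shared on the same strand with AC010197.2, a row at 0.059 TPM untreated and 0.033 TPM on day 5. LDHB fell by 0.58 on day 2 (SE 0.09, limma adjusted p = 0.000119), a change of -0.35 that was not called after rescaling. The changes on day 3 (-0.21, 95% confidence interval -0.40 to -0.03) and day 5 (-0.38, -0.56 to -0.19) were under the size threshold, and after rescaling LDHB was called higher on both days (0.65 and 0.85, limma adjusted p = 0.00168 and 0.000196).

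**Figure D2:**
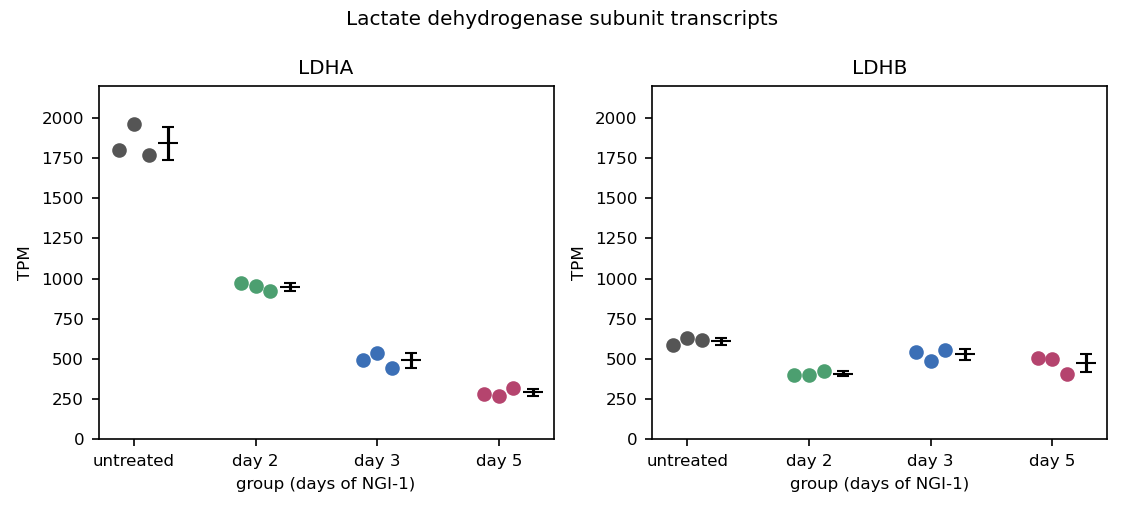
TPM of LDHA (left) and LDHB (right) in each library by group, with the mean ± SD of 3 libraries beside the points. LDHA steps down from about 1843 to 290 TPM, and LDHB stays between 398 and 628 TPM in all libraries.

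Lactate leaves the cell through SLC16A1 (MCT1) and SLC16A3 (MCT4), which need BSG (basigin) to reach the membrane. SLC16A1 was at 91.9, 89.1 and 94.0 TPM in untreated libraries, 52.5, 54.9 and 55.0 TPM on day 2, 49.6, 47.3 and 52.1 TPM on day 3, and 29.6, 27.7 and 25.8 TPM on day 5. No treated library overlapped the untreated ones, and the log2 changes were -0.75, -0.87 and -1.69 (SE 0.08 each), all called. After rescaling, the changes were -0.52 and called on day 2, and -0.02 and -0.49 and not called on days 3 and 5. SLC16A3 was at 3.55, 1.89 and 2.44 TPM in untreated libraries, 4.64, 3.96 and 3.03 TPM on day 2, 3.26, 3.49 and 3.01 TPM on day 3, and 1.95, 2.23 and 2.12 TPM on day 5. Untreated library H1 lay within the range of day 2 and above all values of day 3, so every treated group overlapped the untreated one. The changes of SLC16A3 were 0.44 (SE 0.17, limma adjusted p = 0.0488), 0.25 and -0.20, none past both thresholds. The first was called without H1 (0.61) or H6 (0.57), and after rescaling SLC16A3 was called higher on all 3 days (0.56, 0.87 and 0.66). Of its exon bases, 5.4% overlap CSNK1D on the opposite strand (26.4 TPM untreated, 9.89 TPM on day 5), and the strand setting of the quantification is not given in the sources used here. BSG was at 349 ± 19.1, 263 ± 20.4, 170 ± 16.7 and 132 ± 19.4 TPM in the 4 groups (SD, n = 3), and its change of -1.41 on day 5 was -0.19 and not called after rescaling.

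PDK1 and PDK3 phosphorylate and switch off pyruvate dehydrogenase. PDK1 was at 168, 182 and 168 TPM in untreated libraries and 175, 173 and 181 TPM on day 2. These groups overlapped, and the change was 0.03 (95% confidence interval -0.13 to 0.19). PDK1 was then at 101, 103 and 92.4 TPM on day 3 and 52.8, 56.8 and 56.8 TPM on day 5, below both earlier groups. The changes were -0.80 on day 3 and -1.62 on day 5 (SE 0.07, limma adjusted p = 3.55e-07 and 2.16e-10), which became 0.06 and -0.41 after rescaling and were then not called. PDK3 was present at a low level, 4.37 ± 0.402 TPM untreated, and 0.901 ± 0.0289 TPM on day 5 (SD, n = 3). Its log2 changes were -0.64, -1.18 and -1.5 on the 3 days, all called. After rescaling they were -0.42, -0.55 and -0.70, and the first was not called. With 0.1 TPM in place of 1 added before the log, the day 5 change was -2.16 for PDK3 and -1.64 for PDK1. PGM1, which links glycogen to glucose 6-phosphate, was at 25.7 ± 0.8 TPM untreated and 7.44 ± 1.37 TPM on day 5 and changed by -1.67 (-0.54 after rescaling, called on both scales). Of the PGM1 exon bases, 4.7% overlap ITGB3BP on the opposite strand (44.4 TPM untreated, 30.0 TPM on day 5).

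In the pentose phosphate pathway, 5 of the 6 genes fell on days 3 and 5 on the deposited scale, and the remaining gene was PGLS. Of all features, 61.5% and 69.8% were called lower on these days. PGLS (chr19:17511629-17521288) encodes the lactonase of the oxidative branch and was at 4.75, 5.65 and 6.20 TPM in untreated libraries, 10.1, 9.97 and 7.79 TPM on day 2, 5.37, 6.5 and 5.92 TPM on day 3, and 7.75, 6.66 and 7.90 TPM on day 5. Day 2 and day 5 libraries were above all untreated ones, and day 3 overlapped them. PGLS rose by 0.65 on day 2 (SE 0.14, limma adjusted p = 0.0016), the only rise among the 32 genes on the deposited scale. Its changes of 0.09 on day 3 (95% confidence interval -0.20 to 0.38) and 0.37 on day 5 (0.08 to 0.66) were not called, whereas after rescaling PGLS was called higher on all 3 days (0.82, 0.81 and 1.43). Of the PGLS exon bases, 9.2% overlap AC010618.3 on the opposite strand (1.24 TPM untreated, 0.529 TPM on day 5). PGD, the next oxidative enzyme, was at 85.0, 85.6 and 76.7 TPM in untreated libraries and 17.6, 21.2 and 25.1 TPM on day 5. PGD fell on all 3 days, with log2 changes of -0.55, -1.59 and -1.92 (limma adjusted p on day 5 = 5.98e-09). After rescaling, the changes of PGD were -0.32, -0.74 and -0.72, and the first was not called. Among the non-oxidative enzymes, which exchange sugar phosphates with glycolysis, TKT was at 149 ± 10.2 TPM untreated and 49 ± 8.38 TPM on day 5 and TALDO1 at 143 ± 6.53 and 40.4 ± 5.98 TPM (SD, n = 3). The day 5 changes were -1.59 for TKT and -1.81 for TALDO1, both called, of which the TALDO1 change alone was called after rescaling (-0.60, against -0.38 for TKT). RPIA, the ribose phosphate isomerase, and RPE, the ribulose phosphate epimerase, changed by -1.54 and -1.26, and neither was called after rescaling (-0.43 and -0.09). RPE shares 23.8% of its exon bases with KANSL1L on the opposite strand, a row at 1.25 TPM untreated and 2.34 TPM on day 5.

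**Figure D3:**
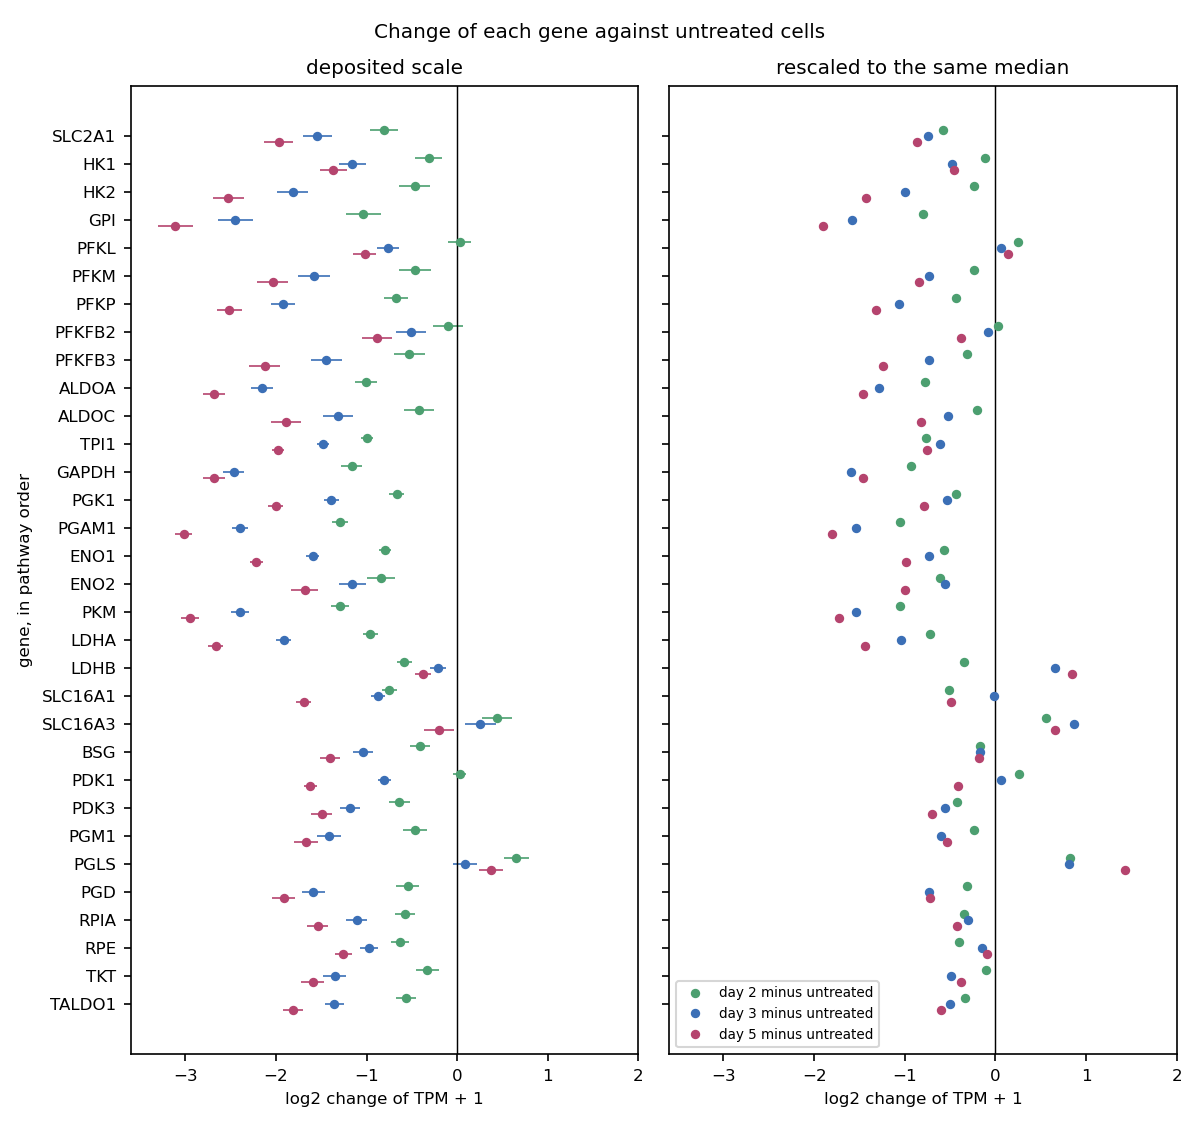
Log2 change of TPM + 1 against untreated for each of the 32 genes on days 2, 3 and 5, on the deposited scale with bars of 1 SE (left) and after rescaling to the same median (right). On the left all genes but LDHB, SLC16A3 and PGLS lie clearly below 0 by day 5, and on the right the points of those 3 genes lie above 0 on days 3 and 5 while GPI, PGAM1 and PKM are lowest on day 5.

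From day 2 to day 3, 25 of the 32 genes were called lower and 0 higher (55.5% and 3.22% of all features), and the median log2 change of the 32 genes was -0.82 against -0.57 for all features. From day 3 to day 5, 14 were called lower and 0 higher (13.1% and 0.67% of all features), with a median of -0.46 against -0.25. The median of the 32 genes thus lay -0.24 from that of all features in the first step and -0.21 in the second, but -0.12 and -0.18 after rescaling. In the 2 steps, 22 and 27 of the 32 genes lay below the median of all features. The libraries of the later group were all below those of the earlier one for 28 genes in the first step and 22 in the second (70.1% and 34.1% of all features), and all above for 1 gene in each (6.93% and 3.45%). After rescaling, 5 genes were called lower from day 2 to day 3 (13.6% of all features), namely HK2, GPI, PFKP, ALDOA and GAPDH, and 1 was called higher (14.3%), LDHB, by 1.0. For the later step after rescaling, 1 gene, PFKFB3, was called lower (-0.51) and 1, PGLS, higher (0.62), against 2.03% and 4.43% of all features. Without ribosomal protein and mitochondrially encoded genes, 16 genes were called lower and 1 higher in the first step (37% and 7.89%) and 6 and 1 in the second (3.92% and 2.34%). The count of 14 was 7 without library H8 and 7 without H10, and 9 when these groups were fitted alone. Among the 32 genes, the untreated log2 level and the change on day 5 were correlated with r = -0.58 and rho = -0.59, against r = -0.34 and rho = -0.44 across all 11939 features. The correlation is across genes measured in the same libraries, and the untreated level enters both axes. The 1 TPM added before the log also shrinks the falls of genes with a low level, which pushes such a correlation below 0. With 0.1 TPM added, the day 5 change of PFKFB2 was -1.84 in place of -0.88, and that of ENO1 stayed at -2.22. The correlation therefore does not show that abundant genes fell more.

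As a share of all TPM, the 34 genes took 1.09%, 1.05% and 1.04% in untreated libraries, 0.568%, 0.595% and 0.550% on day 2, 0.313%, 0.350% and 0.315% on day 3, and 0.225%, 0.232% and 0.253% on day 5. The groups were separated, with means of 1.06 ± 0.0314%, 0.571 ± 0.0228%, 0.326 ± 0.0212% and 0.236 ± 0.0145% (SD, n = 3). The 6 genes of the pay-off stage went from 0.512 ± 0.0242% to 0.0885 ± 0.0101% and the 9 of the preparatory stage from 0.191 ± 0.0106% to 0.0346 ± 0.00429%. The lactate dehydrogenase pair went from 0.245 ± 0.0118% to 0.0762 ± 0.00337%, and the 6 pentose phosphate genes from 0.0430 ± 0.00176% to 0.0137 ± 0.00176%. With ribosomal protein and mitochondrially encoded genes left out of the total, the 34 genes took 1.73 ± 0.0479% in untreated cells and 1.04 ± 0.0333%, 0.742 ± 0.0186% and 0.637 ± 0.0129% on days 2, 3 and 5.

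**Figure D4:**
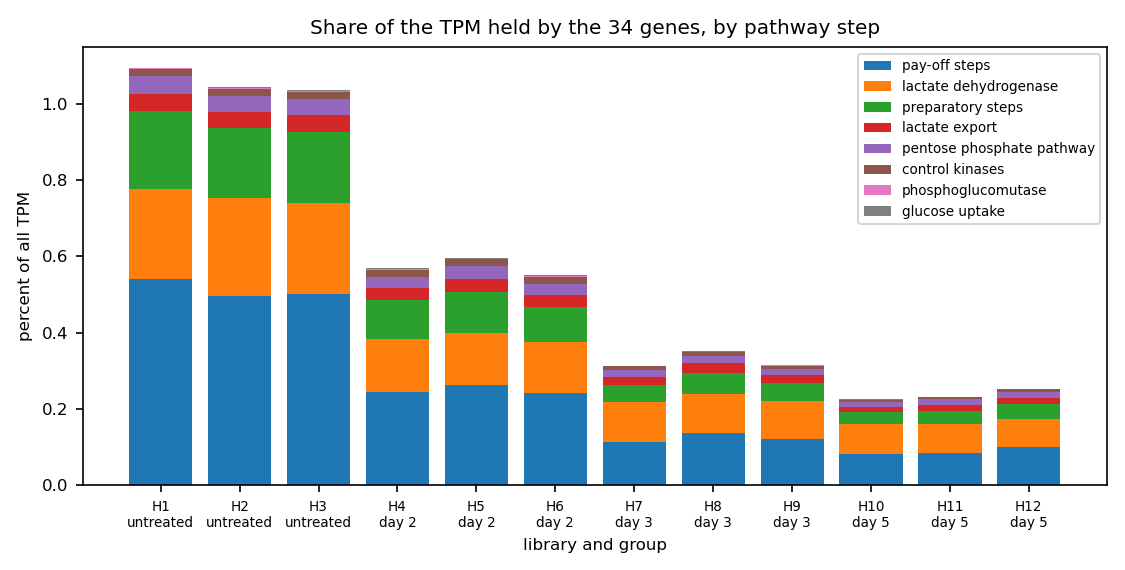
Bars give the percent of all TPM held by the 34 genes in each library, stacked by pathway step, from 0. The untreated bars reach 1.04 to 1.09%, the day 2 bars 0.550 to 0.595% and the day 5 bars 0.225 to 0.253%.

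Ratios between isoenzymes do not depend on how a library is scaled, and they were compared between the 9 treated and the 3 untreated libraries by an exact two-sided permutation test. Of 10 pairs listed, 8 could be computed, and 6 had an adjusted p under 0.05 (Benjamini-Hochberg over the 8). The smallest p this design allows is 0.00455. LDHB was at 0.326, 0.320 and 0.349 times LDHA in untreated libraries, 0.412, 0.418 and 0.460 on day 2, 1.10, 0.904 and 1.26 on day 3, and 1.79, 1.85 and 1.28 on day 5. All 9 treated libraries lay above the untreated ones, and the mean log2 ratio was 1.46 higher (exact permutation p = 0.0182, adjusted p = 0.0242). LDHB transcripts thus outnumbered those of LDHA in all 3 day 5 libraries and in 2 of the 3 day 3 libraries. Relative to PFKL, PFKP fell from 4.88, 4.88 and 5.02 times in untreated libraries to 1.7, 1.81 and 1.76 times on day 5. The mean log2 ratio was 1.11 lower in treated libraries (-1.11, exact permutation p = 0.00455, adjusted p = 0.00727). PFKM to PFKL changed in the same direction, with mean log2 ratios of 1.79 untreated and 1.29, 0.98 and 0.78 on days 2, 3 and 5. The same p was found for PFKM to PFKL, for ALDOC to ALDOA (0.60 higher on the log2 scale), for SLC16A3 to SLC16A1 (1.35 higher) and for PDK3 to PDK1 (-0.79), each with all 9 treated libraries on one side of the untreated ones. HK2 to HK1 did not pass (-0.50, exact permutation p = 0.05, adjusted p = 0.0571), nor did ENO2 to ENO1 (-0.39, adjusted p = 0.114). The test pools the 3 time points, so a ratio that moves late can miss the threshold. The mean log2 ratio of HK2 to HK1 was 2.38 untreated and 2.27, 1.94 and 1.44 on days 2, 3 and 5. For this pair, 8 of the 9 treated libraries lay below all untreated ones.

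**Figure D5:**
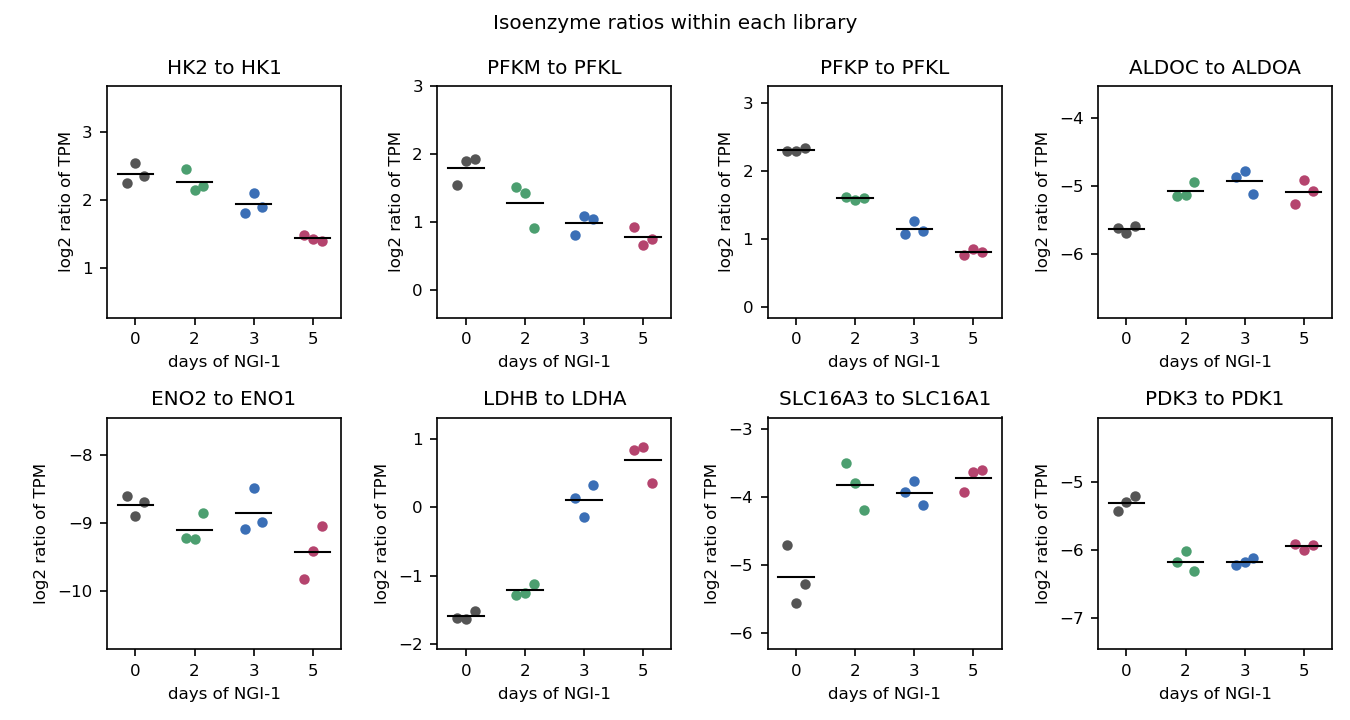
Log2 ratio of TPM for the 8 isoenzyme pairs in each library against days of NGI-1, with a line at the mean of each group of 3. The ratio of LDHB to LDHA goes from a mean of -1.59 to 0.70 and that of PFKP to PFKL from 2.30 to 0.81.

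Many genes of this pathway have processed copies in the genome. The 113 rows named as pseudogenes of 15 of the genes summed to at most 0.980% of their gene in any group, with the exception of SLC2A3, whose pseudogene rows averaged 1.82 TPM on day 2. How reads shared between a gene and its copies were divided is not given in the sources used here.

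The pathways that glycolysis feeds were also lower on the deposited scale. In pyruvate oxidation, 9 of 10 genes passed the filter and 9 fell on day 5, or 3 with 1 higher after rescaling. The largest fall was that of DLAT (-2.71, and -1.55 after rescaling), the acetyltransferase subunit of pyruvate dehydrogenase. All 16 citric acid cycle genes fell on day 5, or 8 after rescaling, led by CS, the citrate synthase, at 138 ± 4.11 TPM untreated and 21.9 ± 6.10 TPM on day 5 (SD, n = 3). Of 20 other genes of glucose metabolism, 11 passed the filter, and 7 fell and 0 rose on day 5, against 4 and 4 after rescaling. Hypoxia-responsive genes outside glycolysis were mixed: of 11 tested, 5 fell and 1 rose on day 5, against 3 and 7 after rescaling. NDRG1, a stress-responsive gene, fell by 2.40 (by 1.23 after rescaling). P4HA1, a collagen prolyl hydroxylase subunit, rose from 32.2 ± 1.81 to 67.1 ± 2.07 TPM (1.04 on the log2 scale, SE 0.09, limma adjusted p = 1.1e-07, and 2.23 after rescaling). Among 7 tested regulators of glycolytic genes, 5 fell and 1 rose, or 4 and 1 after rescaling. ARNT, the partner subunit of the hypoxia-inducible factors, fell by 2.29 (by 1.12 after rescaling). TXNIP, a glucose-responsive inhibitor of glucose uptake, rose from 33.7 ± 1.62 to 57.1 ± 9.56 TPM (0.73, limma adjusted p = 2.01e-05, and 1.93 after rescaling). For all features the shares called lower and higher on day 5 were 69.8% and 7.73%, or 26.9% and 27.5% after rescaling.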

How the data were processed

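Total RNA of MM1S cells was sequenced in 12 libraries (200 ng of RNA, more than 60 M read pairs each per the labels). The authors deposited log2(TPM + 1) values, on a log2 scale, for 59276 features by gene symbol. The submitters' processing notes name FastQC, Trimmomatic, STAR, Salmon and hg38. Their roles, the annotation and the strand setting are not given in the sources used here. TPM keeps no counts, so no counting interval or detection limit is given. The 11939 features that reached 1 TPM in 3 or more libraries were fitted with limma 3.58.1 in R 4.3.3 (1 mean per group over all 12 libraries, mean-variance trend, two-sided tests, Benjamini-Hochberg over all features). A call needed an adjusted p under 0.05 and a log2 change over 0.5 in size. The fit was tested on simulated data.

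For rescaling, each library was divided by the factor that set its median deviation to 0 across 5433 features with a mean of at least 10 TPM. Positions and exon overlaps came from GENCODE release 29 on GRCh38 and promoters from RefSeq. Alternatives were another filter, pseudocount, scaling, model and threshold, and leaving out each library. All 34 genes are named. In each further list, the genes called on day 5 with the largest rise and the largest fall are named, and 1 gene this rule gives is not reported here. The genes and lists (pyruvate oxidation, citric acid cycle, other glucose metabolism, hypoxia response, regulators, myeloma markers, markers of other cell types) were written from general knowledge and chosen with earlier results of these data known.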

Additional observations from a re-analysis of the deposited data

Results flagged for a closer look

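PFKL and PDK1 were picked out because their change against untreated cells had opposite signs on days 2 and 3, with a called difference between the 2 days. PFKL was 0.03 above untreated on day 2 and 0.76 lower on day 3 on the log2 scale, and the difference between the days was -0.79 (SE 0.12, limma adjusted p = 0.000107). Leaving out H2 or H5 turned its day 2 value to -0.0028 or -0.0084. PDK1 was 0.03 above untreated on day 2 and 0.80 lower on day 3, and the difference between the days was -0.83 (SE 0.07, limma adjusted p = 1.79e-06). After rescaling, the differences were -0.19 for PFKL (limma adjusted p = 0.062) and -0.20 for PDK1 (0.0525), and neither was called.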

How the results depend on the processing

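The day 5 count of 29 genes called lower was 29 with any 1 library left out. Several counts moved with the scaling of the library and with the threshold. Rescaled to the same median, 11, 19, 5 and 1 genes were called lower on day 2, on day 3, from day 2 to day 3 and from day 3 to day 5, and 2, 3, 3, 1 and 1 were called higher on day 2, on day 3, on day 5 and in the 2 later steps. Without ribosomal protein and mitochondrially encoded genes, 16 and 6 were called lower in the 2 later steps and 2, 2, 1, 1 and 1 higher in the 5 comparisons. In the related lists, 22 genes were lower and 13 higher on day 5 after rescaling (26.9% and 27.5% of all features). On the deposited scale these counts were 42 and 2 (69.8% and 7.73% of all features). With the ribosomal protein and mitochondrially encoded genes left out, the share of TPM was 1.73%, 1.04%, 0.742% and 0.637% in the 4 groups.

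With a log2 threshold of 1, 5 genes were called lower and 0 higher on day 2, 10 lower from day 2 to day 3 and 0 from day 3 to day 5, and 1 gene of the related lists was higher. The share of all features called at this threshold is not given here, so these counts cannot be set against it. Fitted in pairs, the last step gave 9. With 1 library left out, the counts lower ranged from 19 to 22 on day 2, 28 to 29 on day 3, 24 to 26 from day 2 to day 3 and 7 to 17 from day 3 to day 5, and the count higher on day 2 from 1 to 2. The related lists ranged from 41 to 43 lower, and 6 to 7 ratio pairs passed. The lowest count of 7 was found without H8 and without H10. A count of 2 higher on day 2, PGLS with SLC16A3, was found without H1 and without H6. Day 5 alone gave 0 ratio pairs, since the exact permutation test of 3 against 3 libraries cannot go below p = 0.1.

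Signs turned after rescaling for PFKFB2 on day 2 (0.028), PFKL on days 3 and 5 (0.059 and 0.14), LDHB on days 3 and 5 (0.65 and 0.85), PDK1 on day 3 (0.058), SLC16A3 on day 5 (0.66), 7 genes from day 2 to day 3 (SLC16A1 at 0.50, and TPI1, ENO2, SLC16A3, BSG, RPIA and RPE at 0.31 or less), and 8 from day 3 to day 5 (GAPDH at 0.14, LDHB at 0.19, and HK1, PFKL, PGM1, PGD, RPE and TKT at 0.11 or less). Without ribosomal protein and mitochondrially encoded genes they turned for LDHB on days 3 and 5 (0.26 and 0.34), SLC16A3 on day 5 (0.36), SLC16A1 and SLC16A3 from day 2 to day 3 (0.20 and 0.079), and GAPDH and LDHB from day 3 to day 5 (0.024 and 0.078). With 1 library left out, the day 2 value of PFKL ranged from -0.0084 (without H5; -0.0028 without H2) to 0.074, and the day 3 value of PGLS from -0.0012 (without H1) to 0.16. The log2 ratio of ENO2 to ENO1 was 0.31 higher in treated libraries with 1 TPM added to each gene. The cause of these turns was not tested. With no filter on low values limma warned that most residual variances were 0, so that fit is less reliable. No paired analysis was possible because the labels H1 to H12 give the groups no shared replicate number.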

Other observations

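GAPDH is often used to scale expression measurements, and its change was set beside that of 10 other reference genes chosen after the GAPDH values were seen. On day 5 GAPDH was lower relative to 9 of these 10 than in untreated cells, and the log2 ratio of GAPDH to each changed by -4.65 (B2M) to 1.08 (TUBB). Such a ratio also moves with the other gene, and on day 5 the log2 change was 1.96 for B2M and -3.74 for TUBB. The ratio of GAPDH changed by -0.25 to ACTB, by -0.65 to TBP and by -2.20 to PPIA, and by 1.08 to TUBB.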
